A study of Mus musculus with 8 samples.

Results

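The mitochondrial ribosome translates the few proteins encoded by the mitochondrial genome, and its own proteins are encoded in the nucleus. The expression of these mitochondrial ribosomal protein genes was examined in mouse bone MSCs (mesenchymal stem cells, stromal cells able to give rise to bone, fat and cartilage) cultured at 2% or 21% oxygen. Members were all genes of the deposited count table whose symbol is Mrpl or Mrps followed by a number and at most 1 letter, which gave 78 protein-coding genes of 53465. Of these, 51 encode proteins of the large subunit and 26 encode proteins of the small subunit, with Mrps30 and Mrps18a counted in the large subunit, where their proteins are found despite their names. The remaining gene, Mrps36, encodes a component of the 2-oxoglutarate dehydrogenase complex that was first taken for a ribosomal protein.

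RNA-seq was performed on 4 hypoxia samples (2% O2) and 4 normoxia samples (21% O2), numbered 1 to 4 in each group. According to the methods of the study the cells came from the limb bones of wild-type male C57BL/6 N mice, aged 3 to 5 months per the labels. The labels place the purification of MSCs by flow cytometry on day 12, after culture at either oxygen level, and the methods give the gate as CD45-, TER-119-, CD140a+ and Sca-1+. The study describes another order, in which cells grown at low oxygen were sorted first and then divided between both oxygen levels. Which order holds for these samples was not settled here, and hypoxia samples are taken as the controls. How many animals each sample pools is not given in the sources used here. Nothing but oxygen was varied, and the cells carried no transgene.

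Total counts ranged from 12898291 to 25132141 per sample, with hypoxia replicate 1 the deepest. All 12 MSC markers examined had counts, with a summed level of 85084 to 92810 CPM (counts scaled to the library total) in hypoxia and 61530 to 67087 CPM in normoxia. That sum is made up mostly of the collagen genes Col1a1 (log2 change -0.74, adjusted p = 0.0038) and Col1a2 (-0.34, adjusted p = 0.0784), and of the other markers Eng was called lower (-0.27), whereas Cd44 (0.72), Itgb1 (0.44) and Nt5e (0.59) were called higher. The 10 blood and macrophage markers also had counts, and their summed level of 532 to 1106 CPM in hypoxia overlapped that of 662 to 1270 CPM in normoxia. Of these, Lyz2, the most counted, was called higher (0.56, adjusted p = 0.022) and C1qa lower (-0.77, adjusted p = 0.0464). Endothelial markers summed to at most 2.57 CPM in any sample, and 5 of the 6 erythroid markers were at 0 in every sample. The part of these differences in the results was not tested. In such bulk samples, fewer cells of a type and less RNA per cell cannot be told apart.

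Mitochondrial ribosomes descend from those of bacteria. Roughly speaking, their proteins are of 2 kinds, those with a counterpart in the bacterial ribosome, such as the proteins of the decoding site, the stalk and the peptide exit tunnel, and those that were added in mitochondria. Here 46 members were of the first kind and 31 of the second. Together with the mitochondrially encoded rRNAs these proteins make every respiratory chain subunit that is encoded in mitochondria, and loss of single members impairs oxidative phosphorylation.

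Most members differed little between the oxygen levels. Of the 77 members that passed the filter on low counts, 10 were called by limma-trend at an adjusted p under 0.05, that is 13.0%, against 34.6% of the 14369 genes tested. Among these, 9 members were lower in normoxia (16.5% of all tested genes were called lower) and 1 was higher (18.0% of all tested genes were called higher). Scaling by library size alone, in place of TMM factors, called 14 members, 6 lower and 8 higher. The share of all tested genes called with that scaling was not counted. After GC content and transcript length were corrected for, 20 members were called, 26.0%, against 29.0% of all tested genes. The median log2 change of the members, normoxia minus hypoxia, was -0.051, with an interquartile range from -0.14 to 0.061. For all tested genes the median was 0.0049, with an interquartile range from -0.23 to 0.24.

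The spread of the changes was smaller among the members than among all tested genes. The median absolute log2 change was 0.11 in the members and 0.24 in all tested genes, and the SD of the changes was 0.19 and 0.40. A log2 change of at least 0.5 in either direction was estimated for 3 members (3.90%), against 17.3% of all tested genes. For 65 members (84.4%) the 95% interval of the log2 change lay within 0.5 of 0, which was so for 45.7% of all tested genes. The members were counted well, with between 76 and 1424 counts per sample, and their median SE of 0.098 was close to that of all tested genes, 0.11. In sum they held between 0.145% and 0.173% of the counts of a hypoxia sample and between 0.159% and 0.166% of those of a normoxia sample, and these ranges overlap.

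**Figure D1:**
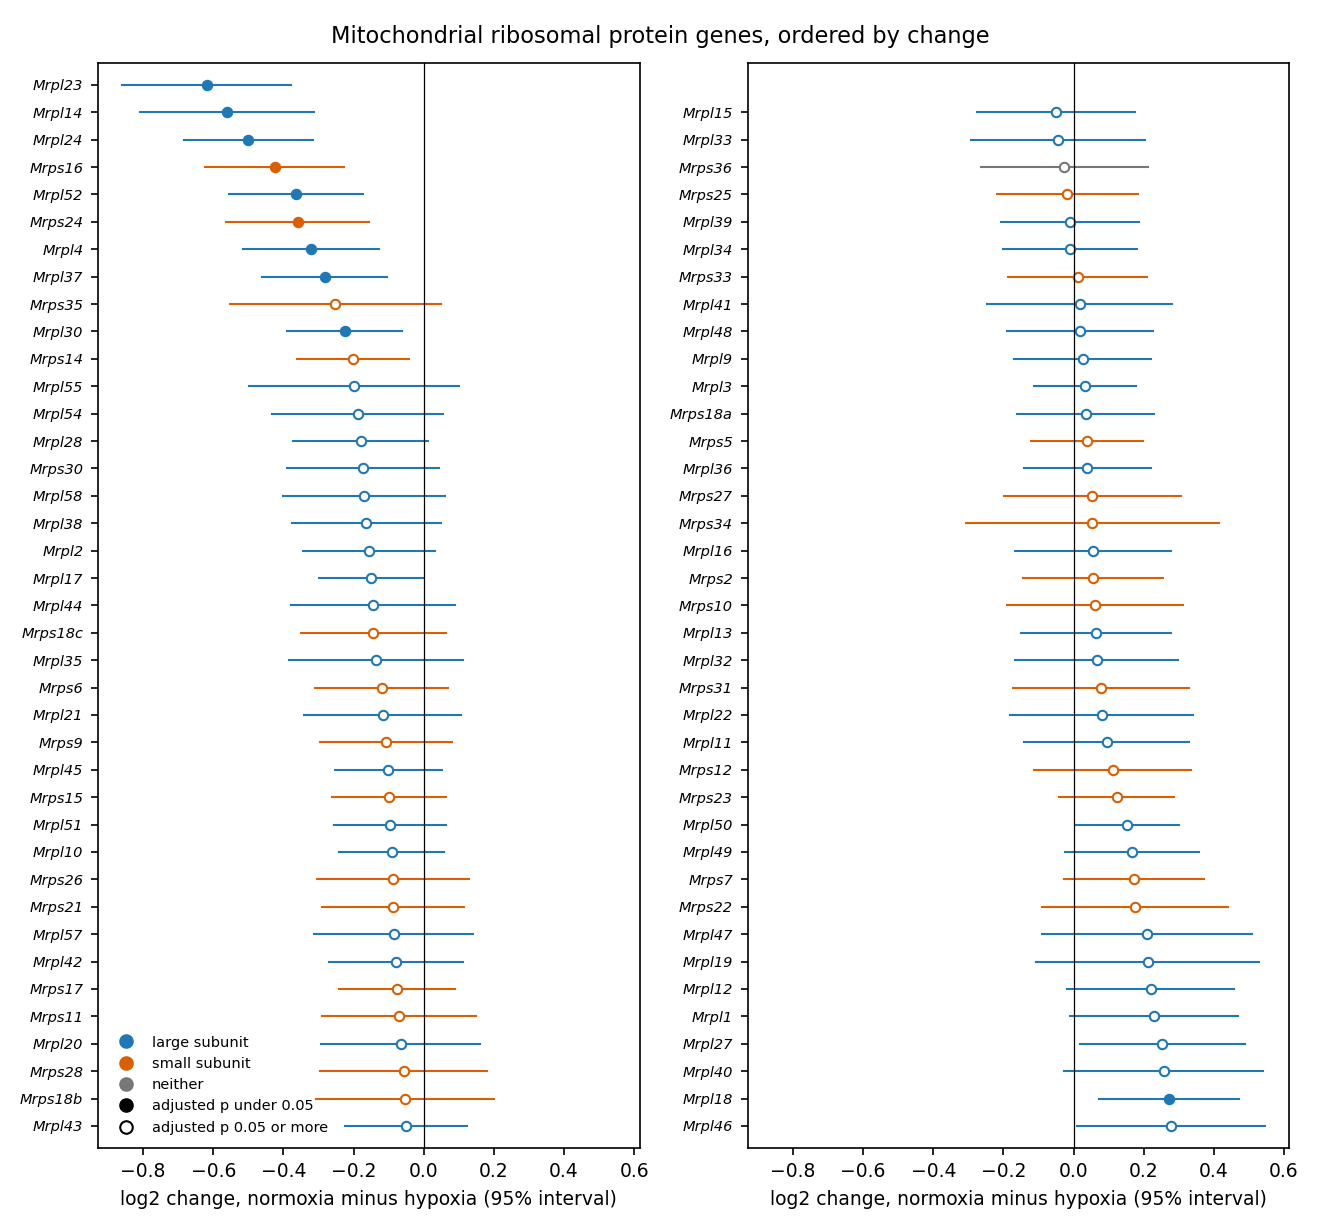
The log2 change of each of the 77 tested members (normoxia minus hypoxia, limma-trend, points) with its 95% interval (lines), ordered from the lowest to the highest and coloured by subunit. Filled points mark the 10 members with an adjusted p under 0.05, of which 9 lie below 0, and 65 of the intervals stay within 0.5 of 0.

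Both subunits showed this pattern. The large subunit had 7 members lower and 1 higher of 50 tested, with a median log2 change of -0.051, and the small subunit had 2 lower and none higher of 26, with a median of -0.056. Members with a bacterial counterpart had 7 lower and 1 higher of 46, and mitochondria-specific members had 2 lower and none higher of 30. The shares called were 16.0% and 7.69% for the large and small subunit. They were 17.4% and 6.67% for these kinds, against 34.6% of all tested genes. The changes of the small subunit ranged from -0.43 to 0.18, and those of the large subunit ranged from -0.62 to 0.28. Across the whole set, 45 members had a negative change and 32 a positive one.

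The member with the largest fall was Mrpl23 (ENSMUSG00000037772, chr7:142532686-142540747, + strand, mm10), whose protein is the counterpart of a bacterial protein beside the exit of the peptide tunnel. Its log2 CPM was 4.23, 4.23, 4.60 and 4.56 in hypoxia replicates 1 to 4 and 3.61, 3.81, 3.84 and 3.88 in normoxia replicates 1 to 4. Every normoxia value lay below every hypoxia value. Mrpl23 fell by 0.62 on the log2 scale (SE 0.11, 95% interval from -0.86 to -0.38, adjusted p = 0.00129), or by 34.9%. A processed copy of the gene, Mrpl23-ps1, is identical to Mrpl23 over 507 bases of its 736-base transcript and had 1124 counts in all. How reads that match both were counted is not stated, so the level of Mrpl23 is uncertain to that extent. Mrpl23-ps1 itself had a log2 change of -0.19 (adjusted p = 0.355), and with the counts of both added together the change was -0.47 (adjusted p = 0.000684).

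Mrpl14 (chr17:45686322-45698495, + strand) encodes a protein of the face at which the subunits join. It had log2 CPM values of 4.71, 4.43, 5.06 and 4.83 in hypoxia and 4.22, 4.21, 4.22 and 4.14 in normoxia. The hypoxia samples spread over a wide range and the normoxia samples lay close together below them. Mrpl14 fell by 0.56 (SE 0.11, adjusted p = 0.00277). Of its exonic bases 11.2% overlap Tmem63b on the opposite strand, which rose by 0.27 (adjusted p = 0.00819), and whether counting used strand is not stated.

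Mrpl24 (chr3:87919506-87923672, + strand), the counterpart of a bacterial protein that starts the assembly of the large subunit, stood at 5.01, 5.14, 5.24 and 5.28 in hypoxia and at 4.54, 4.77, 4.60 and 4.75 in normoxia (log2 CPM). The groups did not overlap. Mrpl24 fell by 0.50 (SE 0.084, adjusted p = 0.000933), the smallest adjusted p among the members. A share of 26.3% of its exonic bases lies opposite Rrnad1, whose change was 0.17 (adjusted p = 0.447).

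In the small subunit, Mrps16 (chr14:20389304-20393634, - strand), which has a bacterial counterpart in the body of the subunit, had log2 CPM values of 5.04, 4.85, 5.07 and 5.12 in hypoxia and 4.79, 4.61, 4.45 and 4.54 in normoxia. It fell by 0.43 (SE 0.091, adjusted p = 0.00364) with no overlap between the groups. Mrps24 (chr11:5703983-5715680, - strand), whose protein lies where mRNA enters the ribosome, had values of 4.77, 4.56, 4.96 and 4.87 in hypoxia and 4.37, 4.55, 4.37 and 4.43 in normoxia. It fell by 0.36 (SE 0.093, adjusted p = 0.0108). The groups of Mrps24 were separate by a narrow margin, since hypoxia replicate 2 was close to normoxia replicate 2. Urgcp shares 15.4% of its exonic bases on the same strand and changed by 0.014 (adjusted p = 0.897).

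Of the other large subunit members that fell, Mrpl52 (chr14:54426909-54429756, + strand), a mitochondria-specific protein, had values of 5.13, 4.92, 5.12 and 5.33 in hypoxia and 4.67, 4.85, 4.76 and 4.76 in normoxia. Its change was -0.36 (SE 0.088, adjusted p = 0.0075) and the groups did not overlap. Mrpl4 (chr9:21002738-21008839, + strand), whose protein lines the peptide tunnel, had values of 4.94, 4.93, 5.09 and 5.13 in hypoxia and 4.68, 4.55, 4.91 and 4.68 in normoxia. Its change was -0.32 (SE 0.089, adjusted p = 0.0153), and normoxia replicate 3 came nearest to the hypoxia samples. Smaller falls were called for Mrpl37, at -0.28 (SE 0.082, adjusted p = 0.0192) with groups that did not overlap, and for Mrpl30, at -0.23 (SE 0.075, adjusted p = 0.0351) with groups that overlapped only at the value of hypoxia replicate 2, 5.20, and normoxia replicate 3, 5.20.

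Mrpl18 (chr17:12911349-12916345, - strand), the counterpart of the bacterial protein that binds the 5S rRNA, was the member that rose. Its log2 CPM was 3.95, 3.71, 3.69 and 3.75 in hypoxia and 4.12, 4.00, 3.97 and 4.10 in normoxia. Hypoxia replicate 1 was just below the lowest normoxia value. The rise was 0.27 (SE 0.092, 95% interval from 0.073 to 0.47, adjusted p = 0.0371), and with DESeq2 the adjusted p was 0.0839. Of its exonic bases 10.1% overlap Tcp1 on the opposite strand, which had 22595 counts in all and a change of -0.015 (adjusted p = 0.911). Whether counting used strand is not stated. Mrpl46 had a slightly larger estimate of 0.28 but did not pass the test (SE 0.12, adjusted p = 0.103).

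**Figure D2:**
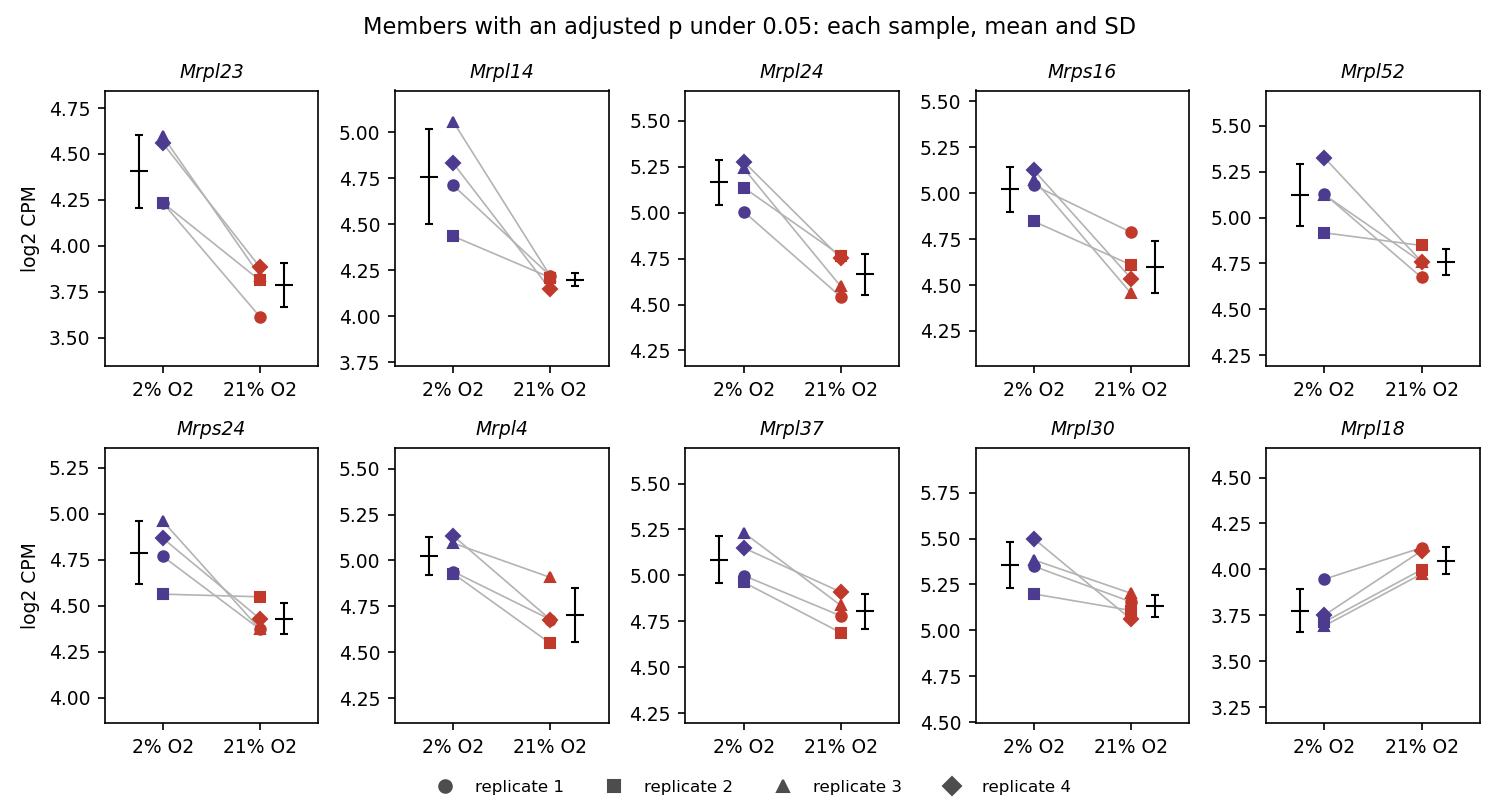
Log2 CPM in each sample of the 10 members with an adjusted p under 0.05, at 2% O2 (left in each panel) and 21% O2 (right), with the mean and SD of 4 samples beside the points and grey lines joining samples of the same number. All panels span the same height on the log2 scale, and in every pair the 9 members from Mrpl23 to Mrpl30 were lower, and Mrpl18 higher, in normoxia.

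Hypoxia and normoxia samples that share a number shifted together around the mean of their group, and the numbers were therefore taken as pairs. The calls, SE and adjusted p given above, apart from those marked as with the block, come from fits that do not use this pairing. With the replicate number as a block, 14 members were called (46.0% of all tested genes), 12 lower (22.7% of all tested genes) and 2 higher (23.3%). All 10 members named above were among them. The members gained as lower were Mrps14, at -0.20 (adjusted p = 0.0166 with the block and 0.0515 without), Mrpl17, at -0.15 (0.0435 and 0.111), and Mrpl54, at -0.19 (0.0497 and 0.219). Mrpl27, which sits near the site of peptide bond formation, was gained as higher, at 0.25 (0.0348 and 0.0896).

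Counted by overlap, 8 members had 4 normoxia values below all 4 hypoxia values (15.5% of all tested genes) and 3 had them above (17.1% of all tested genes). The 3 that were higher were Mrpl18, Mrpl12 and Mrpl50. Mrpl50 had the narrowest groups, with 4.47, 4.45, 4.41 and 4.47 in hypoxia and 4.61, 4.59, 4.58 and 4.63 in normoxia, and a change of 0.15 (adjusted p = 0.101). In 4 of 4 pairs, 19 members were lower and 10 were higher in normoxia, 37.7% together, against 54.5% of all tested genes.

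Members with known central roles were looked at whether or not they changed. The stalk recruits translation factors to the ribosome. Its base protein Mrpl10 had log2 CPM values of 5.12, 5.04, 4.99 and 5.03 in hypoxia and 5.00, 5.01, 4.85 and 4.97 in normoxia, a change of -0.091 (adjusted p = 0.335). Mrpl11 had values of 4.11, 3.88, 4.29 and 4.29 in hypoxia and 4.31, 4.31, 4.06 and 4.26 in normoxia, a change of 0.094 (adjusted p = 0.541). Mrpl12, the stalk protein that also binds the mitochondrial RNA polymerase, had values of 3.26, 3.03, 3.28 and 3.00 in hypoxia and 3.29, 3.42, 3.40 and 3.34 in normoxia. The groups of Mrpl12 did not overlap, but by a gap far smaller than their spread, and the change of 0.22 did not pass the test (95% interval from -0.017 to 0.46, adjusted p = 0.139). Mrps12, a protein of the decoding site, was at 4.31, 3.95, 4.22 and 3.99 in hypoxia and at 4.37, 4.21, 4.23 and 4.10 in normoxia, a change of 0.11 (adjusted p = 0.435).

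The related genes Mrps18a, Mrps18b and Mrps18c encode proteins that share descent from a single bacterial protein and occupy different places in the mitochondrial ribosome. In the counts by kind, Mrps18c stands with the bacterial counterparts, and Mrps18a and Mrps18b with the mitochondria-specific members despite that descent. Mrps18a was at 3.97, 3.95, 4.23 and 4.09 in hypoxia and at 4.07, 4.18, 4.04 and 4.10 in normoxia. Mrps18b was lower in level, at 3.03, 2.85, 3.06 and 3.17 in hypoxia and at 3.12, 2.89, 2.99 and 2.90 in normoxia. For Mrps18c the values were 3.58, 3.56, 3.66 and 3.71 in hypoxia and 3.60, 3.37, 3.50 and 3.46 in normoxia. None of the changes, 0.035, -0.054 and -0.14, passed the test (adjusted p = 0.796, 0.756 and 0.271), and in all 3 genes the groups overlapped. GC and length correction gave Mrps18a a change of 0.27 and called it higher (adjusted p = 0.0252 without the replicate block).

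Although their products are built into the same particle, the members differed widely in mRNA level per length. In TPM (counts per transcript length, scaled to the same total in each sample and computed here with the longest protein-coding transcript of each gene), the mean over all 8 samples ran from 6.05 to 175, with a median of 33.3. The highest was Mrpl33, with 169 TPM ± 20.2 in hypoxia and 180 TPM ± 24.7 in normoxia (SD, n = 4 each). Next came Mrpl52, with 187 TPM ± 18.9 and 159 TPM ± 9.80, and Mrps21, with 147 TPM ± 16.4 and 151 TPM ± 11.2. The order differed between the groups, as Mrpl52 had the highest mean in hypoxia and Mrpl33 in normoxia. Intervals of 1 SD around the means of Mrpl52 and Mrps21 did not overlap in hypoxia and overlapped in normoxia. All 3 have short transcripts of under 500 bases in the annotation used, so a small error in length moves their TPM.

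By log2 CPM, Mrpl33 was at 5.21, 4.87, 5.16 and 4.87 in hypoxia and at 5.29, 4.88, 4.88 and 4.88 in normoxia, a change of -0.044 (adjusted p = 0.801). Normoxia replicate 1 and hypoxia replicates 1 and 3 were high and the other samples lay close together. Mrps21 was at 4.71, 4.70, 4.95 and 5.05 in hypoxia and at 4.68, 4.77, 4.89 and 4.73 in normoxia, a change of -0.087 (adjusted p = 0.511). A copy of Mrps21, Gm6181, matches 264 of its 488 bases at 97.3% identity and had 1017 counts in all, and with copies added the change of Mrps21 was -0.0078 (adjusted p = 0.946).

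The lowest levels per length were those of Mrpl19, with 5.34 TPM ± 0.963 in hypoxia and 6.76 TPM ± 0.820 in normoxia, Mrps35, with 6.95 TPM ± 1.16 and 6.35 TPM ± 0.712, and Mrpl47, with 6.39 TPM ± 0.944 and 8.13 TPM ± 1.03 (SD, n = 4 each). Their order differed between the groups, and in normoxia the intervals of 1 SD around the means of Mrps35 and Mrpl47 did not overlap. In log2 CPM, Mrpl19 was at 3.55, 3.10, 3.35 and 3.75 in hypoxia and at 3.90, 3.48, 3.68 and 3.53 in normoxia. Mrps35 was at 3.32, 3.37, 3.69 and 3.83 in hypoxia and at 3.44, 3.42, 3.28 and 3.06 in normoxia, and Mrpl47 was at 3.44, 3.01, 3.00 and 3.09 in hypoxia and at 3.55, 3.09, 3.31 and 3.44 in normoxia. None was called, with changes of 0.21, -0.25 and 0.21 (adjusted p = 0.294, 0.184 and 0.265). After GC and length correction Mrps35 changed by -0.33. That was called with the replicate block (adjusted p = 0.0307) and not without it (adjusted p = 0.109).

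Mrpl53 (chr6:83109040-83109939, + strand) was the member that did not pass the filter, with 0 counts in every sample. In the annotation 88.0% of its exonic bases are shared on the same strand with Gm42688, which had 16 counts in all. How reads that fit both genes were counted is not stated, so a count of 0 does not show that Mrpl53 was silent. Mrps34 shares 37.0% of its exonic bases with Nme3 on the same strand, which had 0 counts, and 63.4% with Mapk8ip3 on the opposite strand. The change of Mrps34, 0.054, had the largest SE among the members, 0.17, and the source of that SE was not tested.

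Within the set, the members with higher counts tended to have lower changes. Across the 77 members the Spearman correlation between mean log2 CPM and log2 change was -0.40, and across 14353 tested genes it was 0.0031. These are correlations across genes that share the same 8 libraries. They are given as a description.

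The genes lie on 17 chromosomes, and the 10 that were called lie on 8. Mrpl23 is close to the imprinted gene H19, a noncoding RNA that fell by 2.18 on the log2 scale (adjusted p = 0.000295), with a gap of 34.8 kb between the genes. Within 100 kb of Mrpl23, 11 other genes are annotated, of which 5 could be tested. Besides H19, Lsp1 was called lower, at -0.36 (adjusted p = 0.0074), and Syt8 (-0.53), Prr33 (-0.26) and Tnnt3 (-0.23) were not called. Across all members, the change of a member and that of its nearest tested neighbour had a Spearman correlation of -0.012 (n = 77).

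Since ribosomal protein genes of mitochondria are known targets of the factors NRF1, NRF2 (an ETS protein) and YY1, their promoters were searched for short motifs. RefSeq promoter windows (assembly GRCm38.p6, from 250 bases before to 50 bases after a transcription start) were found for 69 of the 78 members. The 120 bases before the RefSeq start are shown for the 5 members with the largest falls, for Mrpl18, which rose, and for Mrpl12, whose change did not pass the test. That start can differ from the start of the gene in the annotation used for the positions above. The stretches of Mrpl23 and Mrpl18 lie wholly inside the annotated genes, and those of Mrpl14, Mrpl24 and Mrpl12 run into them. These stretches are therefore not all upstream sequence by that annotation. Capitals mark a match on either strand to the letters CCGGAA (ETS), GCGCANGCG (NRF1), AAGATGG (YY1), CACGTG (an E-box) or ACGTG (the core of the hypoxia response element, which the E-box contains). Each sequence is given from 5′ to 3′ along the strand of its gene, for Mrpl23 from chr7:142532912-142533031 (+), Mrpl14 from chr17:45686229-45686348 (+), Mrpl24 from chr3:87919424-87919543 (+), Mrps16 from chr14:20393635-20393754 (-), Mrpl52 from chr14:54426789-54426908 (+), Mrpl18 from chr17:12916092-12916211 (-) and Mrpl12 from chr11:120484517-120484636 (+).
Mrpl23: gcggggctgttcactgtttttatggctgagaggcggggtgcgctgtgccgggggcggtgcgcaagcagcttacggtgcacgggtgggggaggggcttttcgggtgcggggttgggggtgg
Mrpl14: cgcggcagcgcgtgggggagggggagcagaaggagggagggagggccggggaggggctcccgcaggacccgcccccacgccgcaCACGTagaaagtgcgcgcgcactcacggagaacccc
Mrpl24: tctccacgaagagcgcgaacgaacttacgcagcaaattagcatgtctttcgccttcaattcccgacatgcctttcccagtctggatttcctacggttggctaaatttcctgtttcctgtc
Mrps16: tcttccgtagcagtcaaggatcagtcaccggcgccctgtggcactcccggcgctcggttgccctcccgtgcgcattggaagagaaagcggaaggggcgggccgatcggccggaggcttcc
Mrpl52: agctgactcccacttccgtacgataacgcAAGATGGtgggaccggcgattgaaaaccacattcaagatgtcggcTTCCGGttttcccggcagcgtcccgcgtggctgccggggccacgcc
Mrpl18: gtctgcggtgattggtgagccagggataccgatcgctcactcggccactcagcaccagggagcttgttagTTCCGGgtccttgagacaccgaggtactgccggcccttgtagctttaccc
Mrpl12: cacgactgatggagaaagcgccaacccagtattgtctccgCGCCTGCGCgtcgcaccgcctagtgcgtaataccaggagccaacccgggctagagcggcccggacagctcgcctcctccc

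In this stretch none of these letters matched for Mrpl23, Mrpl24 and Mrps16. Mrpl14 held the hypoxia response core, read on the opposite strand, at 36 bases before the start, Mrpl52 held a YY1 and an ETS match, Mrpl18 an ETS match and Mrpl12 an NRF1 match. A match is only a run of letters and no evidence of binding, and the lack of one says nothing of the factor.

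Over the whole windows, the ETS letters were in 56.8% of 74 windows of tested members, against 26.2% of 13459 windows of tested genes and 14.9% of all 32851 windows. NRF1 letters were in 21.6% of member windows, against 12.6% and 6.25%, and YY1 letters in 17.6%, against 6.78% and 6.34%. The hypoxia response core was in 25.7% of member windows, against 24.8% and 19.6%, and the E-box in 9.46%, against 9.73% and 7.15%. The GC box (GGGCGG), which binds Sp factors, was in 52.7% of member windows, against 61.6% and 35.7%. Members called lower had 9 windows from 8 genes. Of these 4 held the ETS letters, 2 the NRF1 letters, 3 the YY1 letters, 1 the E-box, 2 the hypoxia response core and 6 the GC box. In the 65 windows of the other tested members the shares were 58.5%, 21.5%, 15.4%, 9.23%, 26.2% and 50.8%, in the same order.

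**Figure D3:**
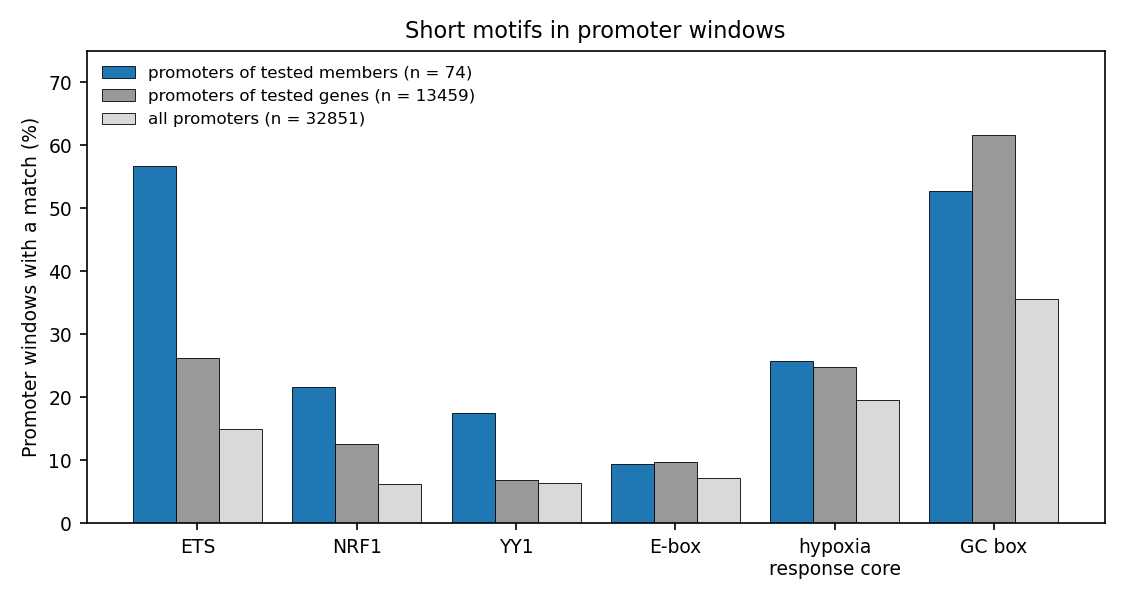
Share of RefSeq promoter windows, in percent, that hold each of 6 short motifs on either strand, for windows of tested members (n = 74), of tested genes (n = 13459) and of all genes (n = 32851). The ETS letters were in 56.8% of member windows and 26.2% of tested gene windows, and the E-box and the hypoxia response core were in near equal shares of both.

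The proteins of the cytosolic ribosome were set beside those of the mitochondrial one. Of 80 cytosolic ribosomal protein genes tested, 65 were lower and 1 was higher in normoxia, with a median log2 change of -0.43, against 9 lower, 1 higher and -0.051 for the 77 mitochondrial members. The shares called were 82.5% and 13.0%, against 34.6% of all tested genes. The interquartile range was -0.55 to -0.29 for the cytosolic genes and -0.14 to 0.061 for the mitochondrial members, and these ranges do not overlap. Cytosolic genes have many near-identical pseudogenes and their counts are uncertain to that extent.

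**Figure D4:**
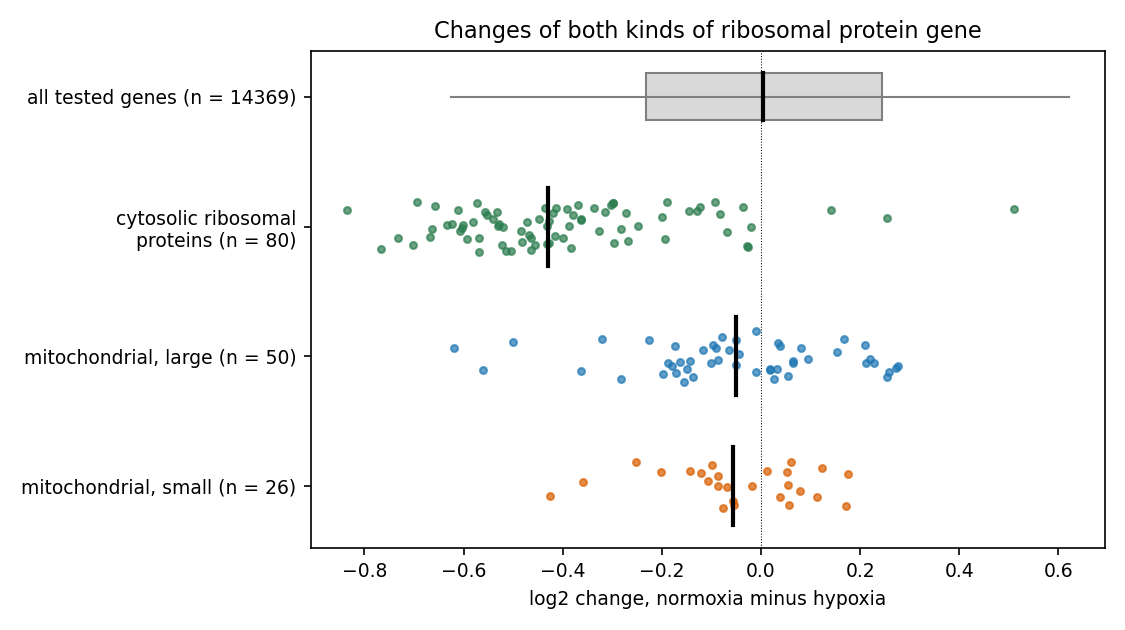
Log2 change (normoxia minus hypoxia) of all 14369 tested genes (box from the first to the third quartile, whiskers from the 5th to the 95th percentile) and of each cytosolic (n = 80) and mitochondrial ribosomal protein gene (50 large subunit, 26 small subunit; Mrps36 is left out). Black bars are medians, at 0.0049, -0.43, -0.051 and -0.056 from top to bottom.

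The RNA part of the mitochondrial ribosome is encoded in mitochondria, and the difference between the changes of its rRNAs was not tested. The small subunit rRNA, mt-Rnr1, was at 7.59, 7.60, 7.41 and 7.70 log2 CPM in hypoxia and at 7.08, 6.93, 6.74 and 7.04 in normoxia. The groups were well apart, and mt-Rnr1 fell by 0.63 (SE 0.083, adjusted p = 0.000233). For the large subunit rRNA, mt-Rnr2, the values were 9.01, 8.89, 8.71 and 8.95 in hypoxia and 9.0, 8.75, 8.59 and 8.64 in normoxia, and these groups overlapped. The change of mt-Rnr2 was -0.15 (adjusted p = 0.241 without and 0.0226 with the replicate block). With GC and length correction it was -0.35 (adjusted p = 0.0106 without the block), and that of mt-Rnr1 was -0.79. How rRNA was handled in library preparation is not given in the sources used here, so these levels may not stand for the amount of rRNA in the cells. Of 9 mitochondrially encoded protein genes tested, of 13 listed, 1 was lower, mt-Nd3 at -0.40, and none was higher (11.1%, against 34.6% of all tested genes). With GC and length correction 2 were lower and none higher (22.2%, against 29.0% of all tested genes). With the replicate block as well, 5 were lower and none higher (55.6%, against 43.2%), and the median log2 change was -0.10, against 0.082 with neither.

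Genes that work with the mitochondrial ribosome were taken from lists made from general knowledge. Of 5 further ribosomal proteins with other names, 2 were lower, Chchd1 at -0.34 (adjusted p = 0.0252) and Aurkaip1 at -0.24 (adjusted p = 0.0066), and 1 was higher, Ptcd3 at 0.57 (adjusted p = 0.000763). In this short list 60.0% were thus called, against 34.6% of all tested genes. All 3 belong to the small subunit, as does Dap3, which was not called (0.033, adjusted p = 0.75). The remaining gene, Gadd45gip1, was not called either (-0.27, adjusted p = 0.254). Without correction, Ptcd3 had a larger rise than any of the 77 members. Its change after GC and length correction was 0.38 (adjusted p = 0.00603), below the 0.42 of Mrpl12. With GC and length correction the call of Aurkaip1 was lost (-0.025, adjusted p = 0.763), and with library size alone those of both Chchd1 (adjusted p = 0.0899) and Aurkaip1 (adjusted p = 0.0586) were lost.

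Among 12 translation factors tested, 3 rose and 2 fell in normoxia (41.7% called, against 34.6% of all tested genes), and the median log2 change was 0.12. The initiation factor Mtif2 rose by 0.58 (adjusted p = 0.000439), the elongation factor Gfm1 by 0.41 (adjusted p = 0.00627) and the recycling factor Gfm2 by 0.38 (adjusted p = 0.0226). The ribosome recycling factor Mrrf fell by 0.30 (adjusted p = 0.0073) and the elongation factor Tufm, which brings tRNA to the ribosome, fell by 0.23 (adjusted p = 0.0113). The call of Tufm was lost with GC and length correction (-0.068, adjusted p = 0.453) and with library size alone (adjusted p = 0.0764), and that of Gfm2 with the correction without the block (0.30, adjusted p = 0.065).

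Of 26 genes for ribosome assembly and rRNA modification, 2 were higher, the GTPase Gtpbp10 at 0.41 (adjusted p = 0.00472) and the pseudouridine synthase family member Trub2 at 0.32 (adjusted p = 0.0208), and 1 was lower, the endoribonuclease Ybey at -0.61 (adjusted p = 0.0108). The share called was 11.5%, against 34.6% of all tested genes. Of 17 genes for transcription and RNA stability in mitochondria, 23.5% were called, against 34.6% of all tested genes, and 3 were higher. These were Pnpt1, a subunit of the RNA degrading complex, at 0.53 (adjusted p = 0.0017), Trmt10c at 0.39 (adjusted p = 0.0355) and the mRNA stability factor Lrpprc at 0.26 (adjusted p = 0.0134). Hsd17b10, which acts with Trmt10c in the processing of mitochondrial tRNA, was lower, at -0.43 (adjusted p = 0.000684). The transcription factor Tfam, at 0.15, and the RNA polymerase Polrmt, at 0.022, were not called (adjusted p = 0.196 and 0.902). With GC and length correction the calls of Gtpbp10 (0.16, adjusted p = 0.18), Trmt10c (0.17, adjusted p = 0.368) and Lrpprc (0.15, adjusted p = 0.146) were lost, and the change of Pnpt1 went to 0.30 (adjusted p = 0.0304). Gained as lower were Malsu1 of the assembly list (-0.35, adjusted p = 0.0422), and Mtpap (-0.43, adjusted p = 0.0075) and Ssbp1 (-0.30, adjusted p = 0.0236) of the transcription list. The assembly list then had 2 lower and 1 higher, and the transcription list 3 lower and 1 higher. Of all tested genes 14.0% were then lower and 14.9% higher.

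The changes of all genes followed the GC content of their transcripts, with a Spearman correlation of -0.39 across 14353 genes, and those of the 77 members did so less, at -0.15. A correction that removed GC content and length from each sample, fitted over all genes with the replicate block, called 24 members (43.2% of all tested genes), 13 lower (21.4% of all tested genes) and 11 higher (21.8%). With it the correlation across members was 0.56, whereas over all genes it was -0.0020. The correlation of the change with transcript length went from 0.099 to -0.48 across members, and from 0.17 to 0.0051 over all genes. Without the block the 20 members called were 10 lower (14.0% of all tested genes) and 10 higher (14.9%). In the 26 members of lowest GC content, 7 were then called lower, against 1 with neither correction nor block, and in the 26 of highest GC content 7 were called higher, against none. With the block in both fits these counts were 8 against 3 and 8 against none. The shares of all tested genes called in the same ranges of GC content were not counted. The correction also removes any change that truly follows GC content or length.

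Mrpl23 (-0.48), Mrpl24 (-0.47) and Mrps16 (-0.51) were called lower with this correction as well. The calls of Mrpl52 (-0.052, adjusted p = 0.58), Mrps24 (-0.16, adjusted p = 0.0967), Mrpl4 (-0.058, adjusted p = 0.544) and Mrpl37 (-0.12, adjusted p = 0.161) were lost. Mrpl12 (0.42, adjusted p = 0.0027), Mrps12 (0.35, adjusted p = 0.000695) and Mrps18a (0.27, adjusted p = 0.0114) were called higher with it. Mrps35 (-0.33, adjusted p = 0.0307) was called lower with it. Mrpl14 (-0.24) kept its call with the block (adjusted p = 0.0122) and missed it without (adjusted p = 0.0505), and Mrpl30 (-0.35) and Mrpl18 (0.33) were called in the same direction as before. Mrps14, which has the lowest GC content of the members, was lowered to -0.45.

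**Figure D5:**
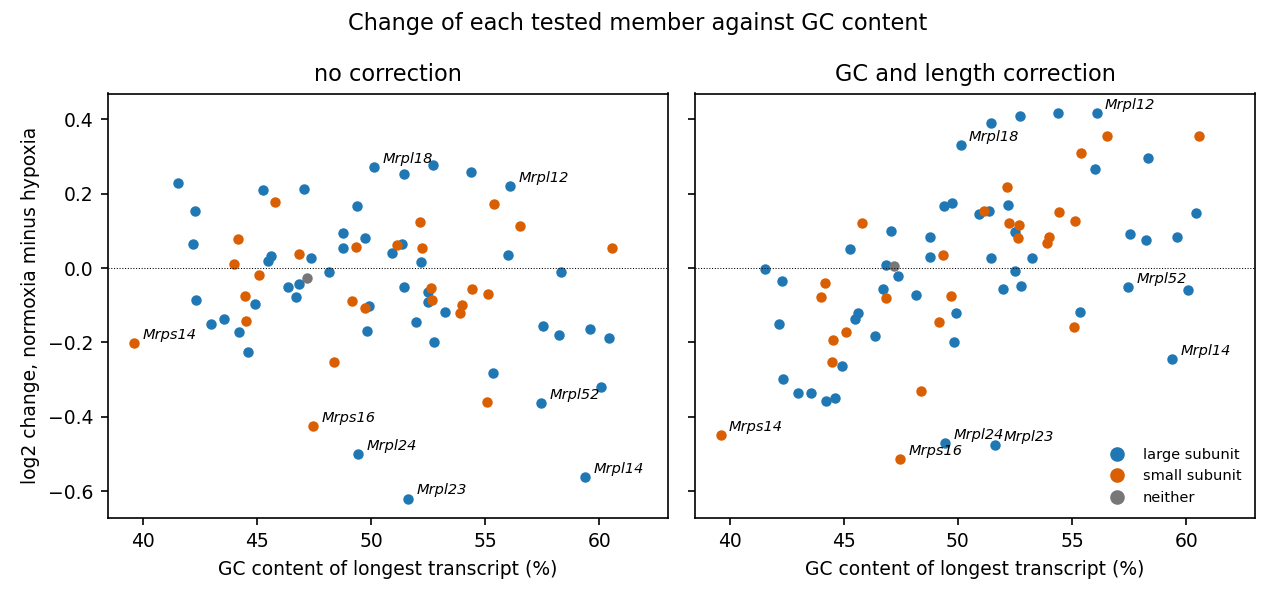
Log2 change (normoxia minus hypoxia) of the 77 tested members against the GC content of their longest transcript in percent, without correction (left) and after removing GC content and length (right), coloured by subunit. Spearman correlations are -0.15 on the left and 0.56 on the right, and Mrpl23, Mrpl24 and Mrps16 lie low in both panels.

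Across 22 alternative settings, Mrpl23, Mrpl24 and Mrps16 were called lower in each, with log2 changes from -0.68 to -0.47, from -0.55 to -0.41 and from -0.51 to -0.34. Mrpl14 was called lower in 21, Mrpl52 and Mrps24 in 20, Mrpl4 in 19, and Mrpl37 and Mrpl30 in 16 each. Mrpl18 was called higher in 11, with changes from 0.24 to 0.36. Its call was lost without any one of hypoxia replicates 2 to 4 or normoxia replicates 1 to 4, and it was kept without hypoxia replicate 1.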

How the data were processed

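The authors prepared RNA libraries, sequenced single-end reads, processed them with zUMIs, STAR, samtools and featureCounts on mm10 with Ensembl annotation, and deposited raw counts per gene, which are not normalized. Strand, intron and multi-mapping settings are not given in the sources used here. Symbols came from GENCODE M21 on the same assembly, for 53274 of 53465 identifiers. As in the study, low counts were filtered with filterByExpr (edgeR 4.0.16, minimum count 5), leaving 14369 genes. Log2 CPM values with TMM factors and a prior count of 3 were compared by limma-trend (limma 3.58.1, R 4.3.3), with Benjamini-Hochberg adjustment over all tested genes and a threshold of 0.05. Normalization and prior count are choices made here. Log2 changes are normoxia minus hypoxia.

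Numbers in the labels were taken to pair the samples because the deviations of same-numbered samples from their group means correlated across genes in every pair (0.47, 0.28, 0.25 and 0.17; other pairs from -0.22 to 0.076). Alternatives were a replicate block, other scaling, filter and prior count, edgeR's quasi-likelihood test, DESeq2 1.42.0, limma-voom, a spline with 5 degrees of freedom for GC content and for length (GENCODE values for 14353 genes), leaving out each sample, and, chosen after seeing the data, adding the counts of near-identical copies. Limma-trend with and without the block, edgeR's quasi-likelihood test without it, DESeq2 and limma-voom were tried on simulated counts. The GC and length correction was not tried in this way.

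Members and lists were chosen with earlier results of these data known. Named with values in every sample are the up to 5 largest called rises and 7 largest called falls, the 3 highest and 3 lowest members per length, the Mrps18 genes, members that missed the filter, the stalk genes and Mrps12, and from other lists up to 3 called rises and falls. All other genes named, also Mrpl50 with its sample values, were picked with their values in view. TPM values were computed from the deposited counts. At these depths 3 counts are between 0.119 and 0.233 CPM, for counting error only. P-values measure the spread between these samples, which the study calls independent biological replicates. Those given without the replicate block leave the pairing of the samples out of account.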

Additional observations from a re-analysis of the deposited data

Results flagged for a closer look

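The following values lay far from the other samples of their group, with a gap to the nearest sample above Dixon's 95% critical value. The search covered 50 sets of 4 samples, in which chance alone gives about 2.5 such values, and 4 were found.

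Mrpl33 in normoxia replicate 1 had a log2 CPM of 5.29, against 4.88 in each of the other normoxia samples. Hypoxia replicate 1 was also the highest of its group for this gene, at 5.21. Mrpl14 in normoxia replicate 4 had a log2 CPM of 4.14, against 4.21 to 4.22 in the others, a gap that is large only beside the narrow range of that group. The median deviation of the members from their mean over all samples was 0.038 on the log2 scale in normoxia replicate 1, against -0.042 to -0.036 in the other normoxia samples. Total counts of hypoxia replicate 1 were 25132141, against 12929564 to 13219647 in the other hypoxia samples.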

How the results depend on the processing

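With the replicate block 2 members were called higher, by limma-trend and by edgeR, and none (0) with upper quartile factors, no filter, DESeq2 or limma-voom. With the block the count of members called lower went from 9 to 12, and it ended no call. Library size alone called 8 members higher and gave a median change of the members of 0.037. GC and length correction called 20 members (26.0%, against 29.0% of all tested genes), 10 of them higher, and with the replicate block 24, of which 11 were higher. Leaving out single samples gave 7 to 14 members called, 7 to 14 lower (14 without hypoxia replicate 2, against 7 without hypoxia replicate 3) and 0 to 4 higher (4 without hypoxia replicate 1). The cause of these differences was not tested. Shares of all tested genes called were counted only for limma-trend with TMM factors on all samples, with and without the block and the correction.

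Reversed changes were small and belong to members that were not called in the main comparison. Mrpl33 went to 0.044 with library size alone, 0.0086 with GC and length correction, with and without the block, and, when single samples were left out, ranged from -0.16 (without normoxia replicate 1) to 0.018 (without hypoxia replicate 1). Mrps21 went to 0.0011 and 0.12, and Mrps18b to 0.032 and 0.080, under library size alone and under GC and length correction. Mrps18a went to -0.0021 without hypoxia replicate 2 and -0.0027 without normoxia replicate 2. When single samples were left out, its highest value was 0.091, without hypoxia replicate 3. With library size alone its change was 0.12. GC and length correction gave Mrps18a a change of 0.27 and called it higher (adjusted p = 0.0252 without and 0.0114 with the block). For the 22 members named by the rule or called, 433 values kept their direction and their side of the threshold, 31 lost a call, 8 gained one and 12 reversed.

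Depth limits the lowest members most, as the least counted had 76 counts in a sample, and 4 samples a group limit the changes that can be called.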
